A study of Mus musculus with 16 samples.

Results

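The regions described here are stretches of H3K4me2 that were called in regenerating liver lacking Arid1a and had no counterpart in the control liver. They were chosen by the H3K4me2 lists themselves: a region called in the KO library on chromosomes 1 to 19, at least 1000 bp wide, that overlapped no region called in the WT library by even 1 bp. Of the 73042 H3K4me2 regions of the KO library, 71609 lay on these chromosomes and 1641 met the rule, which is 5.07% of the 32390 KO regions of that width. The absence of a called WT region, the KO call and the width selected on H3K4me2, so these values are given as a description and nothing is supported with them. H3K27ac, E2f4 and gene positions did not enter the rule.

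KO mice carried Arid1a Fl/Fl with Alb-cre, a Cre recombinase under the albumin promoter, which is active in hepatocytes and their fetal precursors. In which cells the gene was deleted was not measured here. WT mice carried the same Arid1a Fl/Fl alleles without Cre. Both were on a mixed C57/B6 and 129 background, at postnatal day 90, and livers were taken during regrowth, 40 h after part of the organ had been removed by surgery (partial hepatectomy). The sex of the mice is not given in the labels used here. Chromatin from frozen, formaldehyde-fixed liver was immunoprecipitated for H3K4me2, H3K27ac and the cell cycle repressor E2f4, and the labels call the isolated cells hepatocytes. Each mark had 1 library per genotype, so no difference in a mark between KO and WT has a replicate check and none was tested. E2f4 had 2 libraries per genotype.

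Arid1a is an ARID subunit of the BAF form of the SWI/SNF chromatin remodeller, and in many cell types the complex binds enhancers and keeps nucleosomes mobile there. H3K4me2 marks both promoters and enhancers, including enhancers that are primed but not active. H3K27ac is laid down by the acetyltransferases p300 and CBP and marks the active ones, so the pair of marks separates regulatory DNA that is merely marked from DNA in use. The deposited lists are called regions and not read counts. Depth is unknown, and a region is absent from a list when its signal missed the caller's threshold, which is not the same as no signal.

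The lists differed in size. H3K4me2 covered 112 Mb in KO and 104 Mb in WT, whereas H3K27ac covered 104 Mb in KO and 113 Mb in WT. Over all 20661 protein-coding genes with 5000 bp on either side, 10280 (49.8%) had more H3K4me2 length in KO than in WT. WT had more at 6263, and the rest had equal length or none. The hepatocyte identity list, 25 genes including Alb and Hnf4a, had H3K4me2 at every gene in both genotypes, 420 kb in KO and 407 kb in WT.

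The 4 promoters below show the kinds of gene that a KO-only region reached. Sult2a6, a liver sulfotransferase, had H3K27ac over the whole region in KO and none in WT. Olig2, a transcription factor of neural development, had no H3K27ac in either genotype. Des, the muscle and stellate cell filament desmin, had H3K27ac in both. Necab2, a neuronal calcium-binding protein, had a little H3K27ac in KO. The windows run from 250 bp before to 50 bp after the gene start, 5′ to 3′ on the gene's strand, and come from RefSeq (GRCm38.p6, the assembly of build mm10). They are chr7:14254821-14255120 on the minus strand for Sult2a6 and chr16:91225300-91225599, chr1:75360042-75360341 and chr8:119446469-119446768 on the plus strand for Olig2, Des and Necab2. The KO-only region held 161 of the 300 bases at Sult2a6 and all 300 at each of the others. Capitals mark matches to the motifs searched: the TATA box TATAAA on the gene's strand, and, on either strand, AP-1 (TGANTCA) and E2F (GGCGGGAA). Des held none of these.
Sult2a6: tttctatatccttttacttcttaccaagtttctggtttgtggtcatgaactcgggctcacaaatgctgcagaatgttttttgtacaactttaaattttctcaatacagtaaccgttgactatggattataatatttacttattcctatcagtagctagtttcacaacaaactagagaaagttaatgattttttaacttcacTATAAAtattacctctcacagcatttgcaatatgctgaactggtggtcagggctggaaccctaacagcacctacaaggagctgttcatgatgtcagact
Olig2: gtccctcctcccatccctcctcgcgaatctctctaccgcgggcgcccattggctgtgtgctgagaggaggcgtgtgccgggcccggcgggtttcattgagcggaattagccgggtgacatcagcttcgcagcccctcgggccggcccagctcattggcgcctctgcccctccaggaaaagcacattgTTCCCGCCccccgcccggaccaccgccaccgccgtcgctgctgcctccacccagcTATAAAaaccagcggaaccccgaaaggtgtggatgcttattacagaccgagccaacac
Des: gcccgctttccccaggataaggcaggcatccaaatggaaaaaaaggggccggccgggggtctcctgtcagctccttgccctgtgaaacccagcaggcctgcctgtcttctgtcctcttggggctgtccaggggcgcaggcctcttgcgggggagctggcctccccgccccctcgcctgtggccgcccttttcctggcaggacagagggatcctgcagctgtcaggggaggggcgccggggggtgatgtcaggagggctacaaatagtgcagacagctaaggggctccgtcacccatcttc
Necab2: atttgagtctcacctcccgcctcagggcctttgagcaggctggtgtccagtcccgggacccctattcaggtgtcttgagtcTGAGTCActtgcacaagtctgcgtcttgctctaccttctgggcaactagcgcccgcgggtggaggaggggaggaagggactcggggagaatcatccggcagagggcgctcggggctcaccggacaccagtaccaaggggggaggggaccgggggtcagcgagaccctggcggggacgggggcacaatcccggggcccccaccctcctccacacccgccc

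The Sult2a6 window was AT-rich, with a GC content of 35.7% and 0.212 of the CpG dinucleotides that its base composition would give. The Olig2 window was a CpG-rich promoter, with 65% GC and a CpG ratio of 0.815. In all, 71 promoter windows of 66 genes lay on a KO-only region, and 42 of these genes were protein-coding. Their median CpG ratio was 0.26, against 0.729 for the 16316 windows under any KO H3K4me2 region and 0.389 for all 31396 windows compared. AP-1 matches were in 10 of the 71 windows, or 14.1%, against 5.39% of windows under any KO H3K4me2 region and 7.84% of all windows. For the other motifs the shares were 2.82%, 4.52% and 8.32% for TATAAA, 1.41%, 3.57% and 2.17% for E2F, 11.3%, 6.74% and 11.2% for the GATA motif AGATAA, and 4.23%, 9.6% and 7.14% for the E-box CACGTG, in the same order of windows. A motif match describes letters in a window and no binding was measured by it.

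A KO-only region also lay over the hairpin of miR-200a, a microRNA of epithelial cells that represses Zeb1 and Zeb2. The region, chr4:156054331-156055417, had a fold of 3.15, lay 21065 bp from the nearest WT H3K4me2 region and had no H3K27ac in either genotype. The hairpins of miR-200b and miR-429, its neighbours in the same cluster, had neither mark in either genotype. The mature sequences, from RefSeq (GRCm38.p6, minus strand), are shown with the seed, bases 2 to 8, in capitals.
mmu-miR-200a-3p: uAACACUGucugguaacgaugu
mmu-miR-200a-5p: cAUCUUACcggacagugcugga
Of 919 hairpins on chromosomes 1 to 19 in the table, Mir200a and Mir6398 lay on a KO-only region.

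KO-only regions were weak and narrow among KO H3K4me2 regions. Their widths had a median of 1264 bp and reached 4885 bp, and the authors' fold enrichment ran from 2.6 to 6.59 with a median of 3.17. The 30749 KO regions of the same minimum width that overlapped a WT region had a median width of 2118 bp and a median fold of 5.46. The −log10 q-value of KO-only regions had a median of 1.93, and only 13 of the 1641 reached 5. The lists have a low calling threshold, with −log10 q-values down to 1.00.

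**Figure D1:**
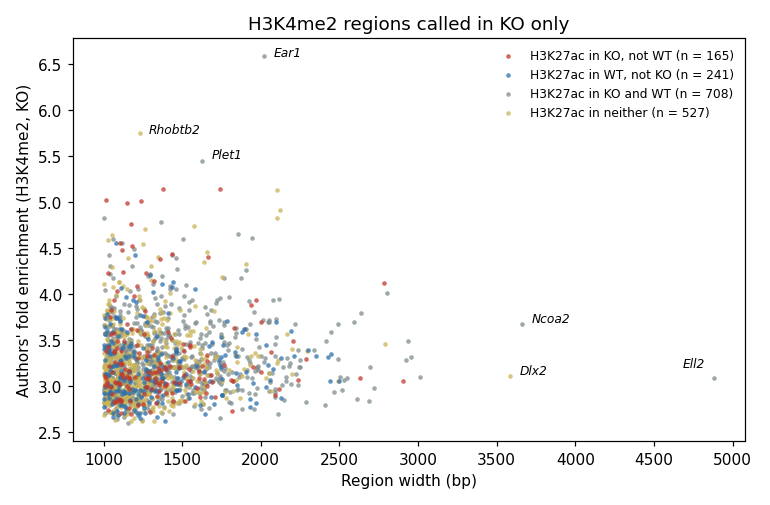
Width in bp (x axis) and the authors' fold enrichment (y axis) of each of the 1641 KO-only H3K4me2 regions, coloured by whether H3K27ac was called in KO, in WT, in both or in neither. Most points sit near the median of 1264 bp and a fold of 3.17, and the labelled regions are the 3 of highest fold (near Ear1, Rhobtb2 and Plet1) and the 3 widest (near Ell2, Ncoa2 and Dlx2).

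Most KO-only regions lay close to chromatin that was marked in WT too. The gap to the nearest WT H3K4me2 region had a median of 3155 bp, and 1019 regions, or 62.1%, had a WT region within 5000 bp. At the other end, 360 (21.9%) were over 10000 bp away and 64 (3.9%) over 50000 bp. The median gap to the nearest KO H3K4me2 region outside this set was 2725 bp. At the edges of the rule, 213 members were less than 50 bp above the minimum width and 242 regions without WT overlap were at most 50 bp below it, with median folds of 3.16 and 3.15. The 46 members within 100 bp of a WT region had a median fold of 3.09, and the 77 KO regions that overlapped a WT region by at most 100 bp had 3.17. By the mirrored rule, 1258 of 31163 WT regions, or 4.04%, were called in WT only. They had a median width of 1260 bp, a median fold of 3.26 and a median gap of 4150 bp to the nearest KO region. The KO-only share ran from 3.7% on chromosome 13 to 6.52% on chromosome 16.

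H3K27ac accompanied KO-only regions in both genotypes and no more often in KO. It was called at 873 KO-only regions in KO (53.2%, exact 95% interval 50.8 to 55.6%) and at 949 in WT (57.8%, 55.4 to 60.2%). Among all 32390 KO regions of this width, 84.8% had H3K27ac in KO and 86.2% in WT. These intervals cover counting over regions only. Both genotypes had H3K27ac at 708 KO-only regions (43.1%), against 80.9% of all KO regions, and neither had it at 527 (32.1%), against 9.91%. Thus 949 of the regions that missed an H3K4me2 call in WT carried an H3K27ac call in the same genotype. When the longer H3K27ac list (WT) was cut to its strongest regions, as many as the KO list holds, the WT share was 52.4% and the order of the genotypes turned, which is a limit on reading any order from these shares.

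H3K27ac in a single genotype was more frequent at KO-only regions than over all KO regions, in both directions. KO alone had it at 165 KO-only regions (10.1%, 8.64 to 11.6%), against 3.94% of all KO regions. WT alone had it at 241 (14.7%, 13.0 to 16.5%), against 5.26%. At matched weak signal these shares lay closer: at a fold of 2.5 to 3, KO alone had it at 8.61% of KO-only regions and 9.27% of KO regions overlapping WT, and WT alone at 16.8% and 14%. At a fold of 3 to 3.5 the same shares were 10.8% and 5.3% for KO alone, and 15.1% and 12.4% for WT alone. By length, H3K27ac covered more of the region in KO at 403, more in WT at 577, and the same at 134. As shares, it was longer in KO at 24.6% and in WT at 35.2% of KO-only regions, against 40.2% and 37.3% of KO regions overlapping WT. H3K27ac covered all of the region in KO at 220 (13.4%) and in WT at 284 (17.3%), against 22.8% and 23.0% of KO regions overlapping WT. The median covered share of length was 10.7% in KO and 22.2% in WT for KO-only regions, against 74.9% and 74.5% for KO regions overlapping WT.

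WT-only regions differed from this picture. They had H3K27ac in KO at 34.7% and in WT at 56.4%, with KO alone at 8.35% and WT alone at 30.1%. Regions without an H3K4me2 call in KO thus had fewer H3K27ac calls in KO than in WT (436 against 710), and KO-only regions had 873 in KO against 949 in WT. The difference between these sets was not tested, because each mark had a single library per genotype.

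**Figure D2:**
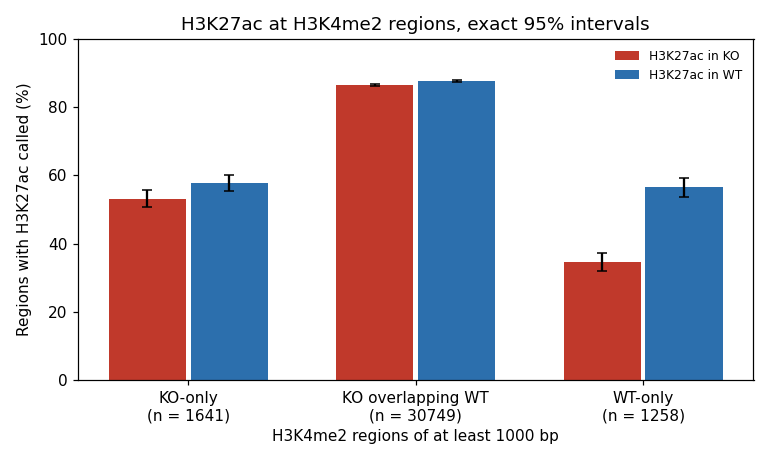
Percent of H3K4me2 regions of at least 1000 bp with H3K27ac called (y axis) in KO (red) and in WT (blue), for KO-only regions, KO regions that overlap WT and WT-only regions; bars are shares and error bars exact 95% intervals over regions. KO-only regions have 53.2% in KO and 57.8% in WT, whereas WT-only regions have 34.7% in KO and 56.4% in WT.

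The strongest KO-only regions had the genotypes the other way round. Among the 86 with a fold of at least 4, H3K27ac was called in KO at 60.5% (49.3 to 70.9%) and in WT at 48.8% (37.9 to 59.9%), and 19 had it in KO alone against 9 in WT alone. These intervals overlap and the order was not tested. Below that fold WT had the higher share: at a fold of 3 to 3.5, 837 regions had 54.5% in KO and 58.8% in WT, and at 2.5 to 3, 453 regions had 44.8% in KO and 53.0% in WT. KO regions that overlap WT had more H3K27ac in each range, for example 74.6% in KO and 81.7% in WT at a fold of 3 to 3.5. At a fold of at least 4 they had 90.1% in KO and 89.7% in WT, with 674 in KO alone and 581 in WT alone. In these regions too, KO was above WT only in the highest range, but there the shares were nearly equal. Whether the turn is particular to KO-only regions was not tested. In every range of fold, KO-only regions had lower shares than KO regions that overlap WT, in KO and in WT. H3K27ac also went with width: it was called in KO at 45.7% of the 795 narrowest regions and 70.2% of the 104 of at least 2000 bp.

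**Figure D3:**
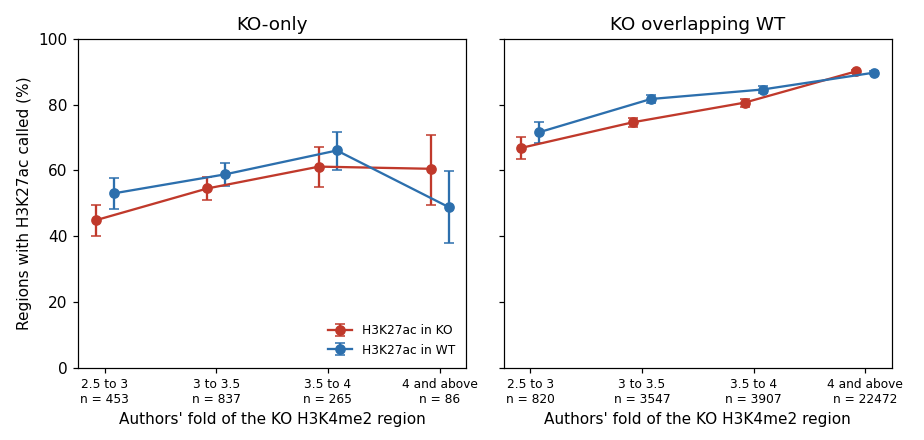
Percent of regions with H3K27ac called (y axis, exact 95% intervals over regions) in KO (red) and WT (blue) against the authors' fold of the KO H3K4me2 region (x axis), for KO-only regions on the left and KO regions that overlap WT on the right. At a fold of 4 and above, the 86 KO-only regions have 60.5% in KO and 48.8% in WT, the only range on the left where KO is above WT. On the right, KO is also above WT only in that range, at 90.1% against 89.7%.

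The 10 KO-only regions of highest fold had H3K27ac in KO alone at 5, in both genotypes at 2 and in neither at 3. The highest, with a fold of 6.59, was chr14:43793598-43795620, 23145 bp from Ear1, an eosinophil-associated ribonuclease of a multigene family whose copies may share reads, and 129252 bp from any WT H3K4me2 region. H3K27ac covered 41.0% of it in KO and 16.6% in WT. The next lay in Rhobtb2, 549 bp from an outer end, with a fold of 5.75 and no H3K27ac. A region in Plet1, a surface protein of epithelial progenitors, had a fold of 5.45 and H3K27ac over 86.7% in KO and 55.3% in WT. Near Tent4a, a noncanonical poly(A) polymerase, the fold was 5.14 and H3K27ac covered 25.9% in KO and 0 in WT. Near Lipc, the hepatic lipase, a 2100 bp region 13004 bp from the gene start had a fold of 5.13 and no H3K27ac in either genotype.

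In 10 cases a region was covered by H3K27ac along its whole length in KO and had none in WT. The reverse, the whole length in WT and none in KO, held at 28 KO-only regions. The 10 lay in or nearest to Pemt, Gm536, Sult2a6, A1cf, Arhgap5, Sult2a8, Setd5, E2f7, Adi1 and Slc2a7. Pemt makes phosphatidylcholine in hepatocytes, and its region lay inside the gene, chr11:59995445-59996992, with an H3K4me2 fold of 3.42 and an H3K27ac fold of 3.14. E2f7 is an atypical E2F that represses cell cycle genes and takes part in hepatocyte polyploidy. Its region, chr10:110732421-110733566, lay 11873 bp before the gene and had an H3K4me2 fold of 4.99 and an H3K27ac fold of 4.82. The Slc2a7 region, 705 bp from the start of this hexose transporter gene, had 5.02 and 5.74 for the same folds. These folds belong to each list alone.

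Sult2a6 and Sult2a8, sulfotransferase genes of 1 cluster, each had such a region. The Sult2a6 region, chr7:14253544-14254981, covered the gene start and had an H3K4me2 fold of 4.44. Over the gene and 5000 bp on either side, H3K4me2 covered 3306 bp in KO and 718 bp in WT, and H3K27ac 3324 bp in KO and 0 in WT. The Sult2a8 region, chr7:14396145-14397319, lay 13367 bp from the gene's 3′ end, with a fold of 4.76. Members of this family resemble each other, so reads may have been shared between copies.

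Sult2a6 is higher in female liver, so sex-biased genes were looked at next, in 2 lists written after the first results were seen. H3K27ac over the 35 female-biased genes came to 286 kb in KO and 167 kb in WT, longer in KO at 24 genes and in WT at 7. Over all protein-coding genes, H3K27ac was longer in KO at 34.3% and in WT at 37.2%. Over the 35 male-biased genes it came to 235 kb in KO and 410 kb in WT, longer in KO at 8 genes and in WT at 24. H3K4me2 length was 272 kb in KO and 291 kb in WT over the female-biased list, and 194 kb and 230 kb over the male-biased list. KO-only H3K4me2 regions were at 1 of 35 female-biased genes (Sult2a6, 2.86%) and 2 of 35 male-biased genes (Slc22a28 and Mup20, 5.71%). The share over all protein-coding genes was 5.44%. WT-only regions were at 9 female-biased genes (25.7%), among them Cyp2b9 and Cyp2b10, and at 1 male-biased gene, Egfr (2.86%). Over all protein-coding genes that share was 4.14%. Cyp2b9, a female-biased cytochrome P450, had 12103 bp of H3K4me2 in KO and 15221 bp in WT, yet H3K27ac covered 13582 bp in KO and 1333 bp in WT. Genotype and the sex of the animal behind each library cannot be told apart here, and the part of sex in the H3K27ac values was not tested.

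The 10 widest regions behaved differently from the strongest, with H3K27ac in both genotypes at 7, in KO alone at 1 and in neither at 2. The widest, 4885 bp, lay inside Ell2, a transcription elongation factor, with H3K27ac over 17.1% in KO and 11.4% in WT. At Hnf4a, the master nuclear receptor of hepatocyte identity, a 2923 bp region covered the 3′ end and was wholly under H3K27ac in both genotypes. A 3586 bp region lay 1320 bp from Dlx2, a homeobox gene of forebrain and jaw development, and had no H3K27ac. A 2901 bp region inside Pid1 had H3K27ac over 44.2% in KO and 0 in WT.

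KO-only regions lay away from gene ends. Their median distance to the nearest end of a protein-coding gene was 20439 bp, against 5848 bp for KO regions overlapping WT and 18928 bp for WT-only regions. Within 5000 bp of an end lay 293 (17.9%, 16 to 19.8%), against 46.6% of all KO regions. Within 1000 bp lay 105 (6.4%), against 36.8%, and their nearest end was the gene start at 36 and the 3′ end at 42, with the strand not in the table used for 27. A gene end was covered by 51 (3.11%), against 34.8% of KO regions overlapping WT and 3.82% of WT-only regions. Over 100000 bp away lay 159 (9.69%), against 6.68% and 12.5% of the same sets. Counting every annotated gene, noncoding ones included, 516 (31.4%) lay within 5000 bp of an end, against 60.4% and 35.8%.

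**Figure D4:**
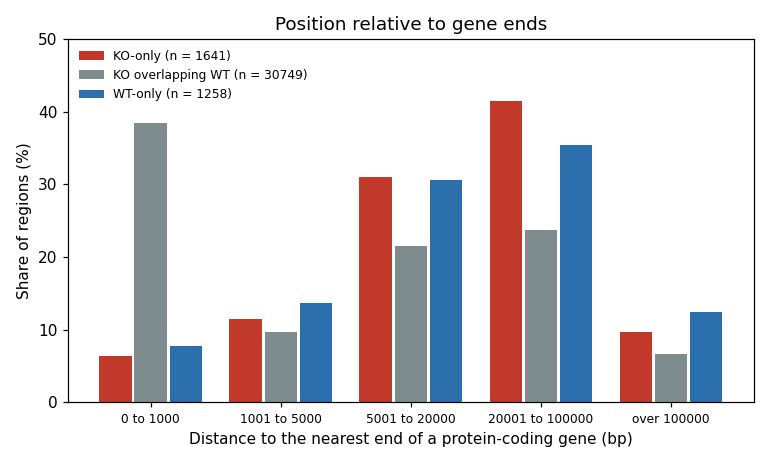
Share of regions (y axis, %) by distance to the nearest end of a protein-coding gene (x axis, bp) for the 1641 KO-only regions (red), the 30749 KO regions that overlap WT (grey) and the 1258 WT-only regions (blue). Within 1000 bp lie 6.4% of KO-only and 7.79% of WT-only regions, against 38.4% of KO regions that overlap WT.

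The gap to KO regions overlapping WT differed by fold. At a fold of 3 to 3.5, 18.5% of KO-only regions and 20.7% of KO regions overlapping WT lay within 5000 bp of a gene end, and at 2.5 to 3 the shares were 17.0% and 19.1%. At 3.5 to 4 they were 14.7% and 22.5%. At a fold of 4 and above they were 25.6% and 58.0%. The share with its midpoint inside a protein-coding gene was 69.9% (1147 regions), against 72.5% of all KO regions. Of the 165 with H3K27ac in KO alone, 78.8% were inside a gene, and of the 241 with it in WT alone, 65.6%.

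Within 1000 bp of a gene end, 11 of 105 KO-only regions (10.5%) had H3K27ac in KO and none in WT. A nearly equal number, 10 (9.52%), had it in WT and none in KO. For KO regions overlapping WT at this distance the shares were 2.28% and 1.97%. Of the 11, the 6 of highest fold, from 3.41 to 5.02, were near Slc2a7, Ereg, Sult2a6, Adi1, Osgin1 and Pde6c. Ereg encodes epiregulin, a ligand of the EGF receptor. Its region, chr5:91073722-91074901, covered an outer end of the gene, had a fold of 4.52, lay 27680 bp from any WT region, and had H3K27ac over 76.3% in KO. Adi1, an enzyme of methionine salvage, had a fold of 3.83 and H3K27ac over the whole region in KO. The Osgin1 region also held the promoter of Necab2 printed above, and H3K27ac covered only 38 bp of it in KO.

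KO-only regions were on or within 5000 bp of 1124 of 20661 protein-coding genes, or 5.44%, and WT-only regions of 856, or 4.14%. A single KO-only region was at 951 of these genes, 2 were at 139, and 3 or more at 34. Genes with a KO-only region had a median length of 75204 bp, genes with a WT-only region 66816 bp and all genes 17491 bp, so long genes were hit more often by either. Both kinds of region were at 124 genes, which is 11.0% of the first set and 14.5% of the second. Near no gene were 395 KO-only regions.

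The genes with most KO-only regions were Tshz2 with 7, Med13l with 6 and Denn2b and Apbb2 with 5 each. Tshz2, a zinc finger gene of 440243 bp, had 53111 bp of H3K4me2 in KO and 29628 bp in WT, whereas H3K27ac covered 39968 bp in KO and 53720 bp in WT. Med13l, a subunit of the Mediator kinase module, had 32419 bp of H3K4me2 in KO and 25866 bp in WT, and H3K27ac over 14865 bp in KO and 13526 bp in WT. Nckap5, at 917161 bp the longest of these genes, had 28996 bp of H3K4me2 in KO and 9661 bp in WT. All 10 of the genes with the most KO-only regions had more H3K4me2 length in KO, which the choice of genes fixes, and H3K27ac was longer in KO at 3 of them.

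Arid1a itself held a KO-only region. It was chr4:133724976-133726498, inside the gene, with a fold of 3.13, and H3K27ac covered 0 of it in KO and 38.6% in WT. Over the gene, H3K4me2 covered 32438 bp in KO and 24677 bp in WT. The lists cannot show the deletion of floxed exons, so they do not check the genotype labels. Arid1b, the alternative ARID subunit of the same complex, held 3 KO-only regions, with H3K27ac in WT alone at 2 and in both at the other, which had a fold of 4.49. No other gene of the 25 SWI/SNF subunits had one, which makes 8.0%, against 5.44% of all protein-coding genes. Smarca2 had a WT-only region.

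Genes of hepatocytes were reached by a few KO-only regions, most of them acetylated in both genotypes. Of 25 hepatocyte identity genes, 3 had one (Cps1, Hnf4a and Nr5a2; 12%, 2.55 to 31.2%) and 1 had a WT-only region (Alb). Cps1, the first enzyme of the urea cycle, had 2, and the stronger, chr1:67143319-67145433 with a fold of 3.95, had H3K27ac over 100% in KO and 29.6% in WT. Nr5a2, the nuclear receptor LRH-1 that drives bile acid genes, had a region with H3K27ac over 100% in KO and 44.1% in WT. Of 29 hepatic metabolism genes, 5 had a KO-only region (17.2%) and 3 a WT-only region. The shares over all protein-coding genes were 5.44% and 4.14%. Cpt1a, which brings fatty acids into mitochondria, had 3 KO-only regions, all with H3K27ac in both.

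Growth and morphogen genes had 7 of 34 with a KO-only region (20.6%, 8.70 to 37.9%) and 3 of 34 with a WT-only region. Among all protein-coding genes these shares were 5.44% and 4.14%. The 7 were Tead1 and Yap1 of the Hippo pathway, Smad3 and Tgfbr2 of TGF-β signalling, Notch2, Igf1 and Rspo3. Yap1 also had a WT-only region. With 5000 bp on either side, H3K4me2 was longer in WT at Yap1, Tgfbr2 and Igf1. It was longer in KO at Tead1, Smad3, Notch2 and Rspo3. The regions of Tead1, Tgfbr2 and Yap1 had no H3K27ac in either genotype. Smad3 had 2, of which 1 had H3K27ac in both and 1 in KO alone. These are long genes, with a median of 46610 bp. Cell cycle genes had 1 of 33 (3.03%), Cdkn2c, the CDK4 and CDK6 inhibitor p18, and immediate early genes had 0 of 20. Fetal liver genes had 2 of 12 (16.7%), Trim71 and Hmga2. Developmental transcription factors had 2 of 33, Olig2 and Irx3, and this share of 6.06% was near that of all genes. Their 3 regions had folds of 3.79 to 4.71 and no H3K27ac in either genotype.

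Markers of other liver cells were unevenly reached by the regions of each genotype. The labels describe an isolation of hepatocytes, but the purity was not measured here. Both marks were called at genes of other liver cells in both genotypes. Across a whole sample, fewer cells of a type and less mark per cell cannot be told apart. KO-only regions were at 4 of 19 macrophage genes (Mertk, Marco, Cd163 and Lyz2) and WT-only regions at none, whereas KO-only regions were at 0 of 20 T and NK cell genes and WT-only regions at 7 (35.0%, 15.4 to 59.2%), among them Cd3d, Cd3g and Cd2. At B cell genes the counts were 0 and 3 of 14. Endothelial genes had KO-only regions at 6 of 30 (20.0%), among them Erg, Vwf, Lyve1 and Flt1, and WT-only regions at 4. Vwf was in both sets, and H3K4me2 covered 6292 bp of it in KO and 7342 bp in WT. Stellate cell and fibroblast genes had KO-only regions at 4 of 21 (Dcn, Hgf, Colec11 and Des) and WT-only regions at 1, again Dcn. Neutrophil and cholangiocyte genes had neither. These counts are small and their intervals wide. For all protein-coding genes the shares were 5.44% with a KO-only and 4.14% with a WT-only region.

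The H3K4me2 length over whole lists is given beside these counts. Over all 20661 protein-coding genes it was 107000 kb in KO and 99800 kb in WT, longer in KO at 10280 and in WT at 6263. Over the endothelial list it was 411 kb in KO and 317 kb in WT, longer in KO at 27 of 30 genes, while H3K27ac was 424 kb in KO and 539 kb in WT. Over the stellate cell and fibroblast list H3K4me2 was 94.3 kb in KO and 65.9 kb in WT, longer in KO at 16 of 21 genes, while H3K27ac was 81.4 kb in KO and 110 kb in WT, longer in WT at 17. Over the T and NK list H3K4me2 was 38.6 kb in KO and 77.5 kb in WT, while H3K27ac was 36.4 kb in KO and 32.1 kb in WT. That list had no H3K4me2 at 7 genes in KO and at 5 in WT; Cd3e, a defining T cell gene, had 0 in KO and 1654 bp in WT. Over the B cell list H3K4me2 was 37.3 kb in KO and 52.6 kb in WT, and H3K27ac 17.4 kb in KO and 20.4 kb in WT. Over the macrophage list H3K4me2 was 95.5 kb in KO and 90.1 kb in WT, longer in KO at 8 of 19 genes, and H3K27ac 152 kb in KO and 153 kb in WT, with H3K4me2 at Marco of 2092 bp in KO and 0 in WT. The part of cell mixture in the KO-only regions was not tested.

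**Figure D5:**
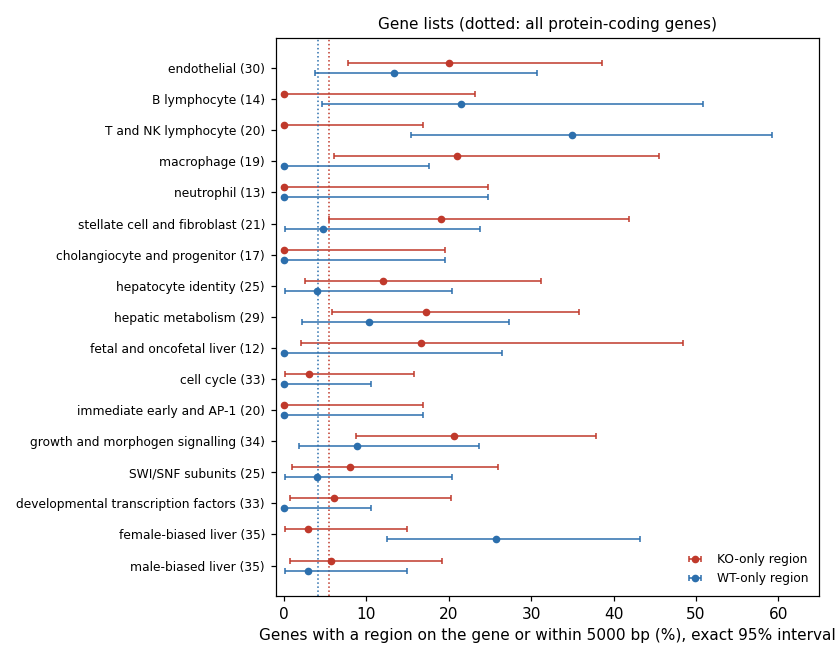
Percent of genes in each list (number measured in brackets) with a KO-only (red) or WT-only (blue) H3K4me2 region on the gene or within 5000 bp (x axis), with exact 95% intervals over genes; dotted lines are the shares over all protein-coding genes, 5.44% for KO-only and 4.14% for WT-only. T and NK genes have 0 KO-only and 35.0% WT-only, and the sex-biased lists at the bottom were added later.

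E2f4 did not occupy these regions at a detectable level. No autosomal peak of either KO library lay on one, out of 281 and 669 peaks. The exact 95% upper limits of these shares were 1.30% and 0.55%, from counting alone. In WT, 1 of 1741 peaks and 0 of 1033 lay on one. The mean shares were 0% in KO and 0.0287% ± 0.0406 in WT (SD, n = 2 each), a difference of −0.0287 percentage points. A two-sided exact permutation test gave p = 1, where 2 libraries per genotype allow no p below 0.333. With the only peak in 1 library, every assignment of the libraries gave a difference of the same size. The p was therefore fixed by that single peak, and the test decides nothing. The single peak lay on the region chr4:155420016-155422797, 22956 bp from Gabrd, and had a fold of 4.53. WT-only regions held no E2f4 peak in any of the 4 libraries either. KO-only regions cover 2.23 Mb in all. KO regions that overlap WT, far more numerous and with a mean width of 2850 bp, held 78.3% and 96.4% of E2f4 peaks in the KO libraries and 81.8% and 93.5% in the WT libraries. Whether the 2 libraries of a genotype came from separate animals is not given in the labels, so the SD covers only the spread between these libraries.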

How the data were processed

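The analysis used 8 immunoprecipitation libraries; the 8 inputs were not used. Per the submitters' processing notes, the tools were MACS2 2.0.10.20131216, HOMER, Bowtie2 2.2.3 and Picard, and the build was mm10; the notes give no roles, and the use of the inputs is not given in the sources. The deposited lists, 1 per library, give each region's fold enrichment, a ratio, with the −log10 p-value and −log10 q-value; the deposited score was not used. Fold and −log10 q-value only describe, rank or filter regions within a list. Depth is unknown.

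Regions were compared by overlap of at least 1 bp, H3K27ac was counted the same way, and shares have exact Clopper-Pearson 95% intervals. Overlap code was tested on simulated data. Gene positions are outer gene ends from RefSeq (GRCm38.p6), and strand came from its promoter table, in which chromosome 18 was not used; exons and introns were not analysed here. Python 3.11.15, numpy 2.4.6, pandas 2.3.3 and scipy 1.17.1 were used. Members, the 15 gene lists (345 of 352 entries matched) and tests were chosen with earlier results of these data known, and 2 sex-biased lists and 1 alternative were added after the first counts. Named regions are the 10 of highest fold, the 10 widest, the 10 with the most H3K27ac in KO and none in WT, up to 4 genes per list, the genes with most members and 6 at gene ends; the promoters and Mir200a were chosen after their values were seen.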

Additional observations from a re-analysis of the deposited data

How the results depend on the processing

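Of 129 alternative values, 83 stayed within the bounds set for them and 46 moved. The 1641 KO-only regions became 7820 with a minimum width of 500 bp, 104 with 2000 bp, 13 where the −log10 q-value had to reach 5, and 3658 when only WT regions with a −log10 q-value of at least 2 counted, an alternative chosen after seeing the data. With lists of equal length, 1483 of them were kept. H3K27ac in KO was at 36.1%, 70.2% and 69.2% under the first 3 of these settings, H3K27ac in WT at 41.7%, 75% and 30.8%, and regions inside a gene at 65.4%, 76.9% and 53.9%. Among the 13 strongest, 38.5% had H3K27ac in KO alone, 30.8% lay within 5000 bp of a gene end, and 9 genes were reached, none on a gene list. With H3K27ac regions of −log10 q-value at least 5, the shares were 5.36% in KO, 8.47% in WT and 2.07% in KO alone. With H3K27ac over at least 50% of the region they were 31.8%, 37.4% and 8.47%. With H3K27ac lists of equal length, WT had 52.4% and KO alone 12.1%. Near a gene end lay 6.4% at 1000 bp, 32.0% at 10000 bp and 31.4% with all annotated genes, which put 77.3% inside a gene. The causes were not tested.

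For E2f4, leaving out 1 library at a time gave differences of −0.0574 to 0.0 percentage points; without E2f4 WT replicate 1, which holds the only peak, it was 0.0, as with peaks of −log10 q-value at least 5. With a replicate block the difference was −0.0287, the same as without it. The absence of replicate libraries for the marks limits every other value.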

Other observations

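On the X chromosome, which the rule left out, 25 of 678 KO H3K4me2 regions of at least 1000 bp overlapped no WT region (3.69%, exact 95% interval 2.40 to 5.40%), and 19 of 634 WT regions overlapped no KO region (2.997%, 1.81 to 4.64%). H3K27ac was called at 10 of the 25 KO-only regions in KO and at 17 in WT. The strongest of them, with a fold of 3.73, lay 20266 bp from an end of Msn, which encodes the cytoskeletal linker moesin, and H3K27ac covered 1282 bp of it in KO and 1379 bp in WT. At Ap1s2, a subunit of a clathrin adaptor complex, 3 KO-only regions had folds of 2.82 to 3.24. A region 18318 bp from an end of Kdm6a, an H3K27 demethylase, had a fold of 2.86 and no H3K27ac in either genotype.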
